A study of Mus musculus with 35 samples.

Results

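Alveolar macrophages, interstitial macrophages and monocytes of the mouse lung were followed through 10 genes in RNA of whole lungs. The genes were taken by name from the 54532 genes of the deposited count table, and their values in these comparisons were not part of the rule. Chil3, Ear2, Marco, Mrc1 and Pparg stand for alveolar macrophages, C1qa, C1qb and C1qc for interstitial macrophages, and Ccr2 and Ly6c2 for monocytes. All 10 genes were found in the table, and all 10 passed the filter on low counts in every comparison, with 27 counts (Marco) or more in each library.

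Alveolar macrophages live in the air spaces, are seeded around birth and depend on the growth factor GM-CSF, which acts through the nuclear receptor encoded by Pparg. They clear surfactant and inhaled particles. Chil3 encodes a secreted chitinase-like protein, Ear2 a ribonuclease of the eosinophil-associated family, Marco a scavenger receptor for bacteria and particles, and Mrc1 the mannose receptor CD206, which many interstitial macrophages carry as well. Interstitial macrophages lie in the tissue around airways and vessels and make the complement protein C1q, whose A, B and C chains are encoded by C1qa, C1qb and C1qc. Classical monocytes leave the bone marrow and enter the lung through CCR2, the receptor for the chemokine CCL2. Ly6c2 encodes a surface protein of these cells. In bulk RNA, fewer cells of a type and less RNA per cell cannot be told apart.

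The 34 libraries came from whole lungs of adult mice, at least 3 months old, of 3 genotypes. Control mice were B6/129SJ2 wildtype animals, Cav1-KO mice lacked caveolin-1 in all cells (allele Cav1(tm1Mls/)J), and Cav1-RC mice were the knockout with caveolin-1 put back in endothelial cells only. Females and males of each genotype had breathed room air (normoxia) or 10% oxygen (hypoxia) for 6 weeks, and each of the 12 groups held 3 libraries except the normoxic Cav1-KO and Cav1-RC females, with 2 each. Nothing in the sources used here names the promoter of the Cav1-RC transgene. Chronic hypoxia in these mice serves as a model of pulmonary hypertension, and the comparisons asked how hypoxia, the loss of caveolin-1 and its return to the endothelium changed the lung.

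Depth was 12425535 to 33343006 counts per library (median 18015172.5). The targeted gene Cav1 stood at 989 to 1356 CPM (counts scaled to library size) in Control libraries and at 1.61 to 4.0 CPM in Cav1-KO libraries. It stood at 1.48 to 6.56 CPM in the libraries labelled Cav1-RC, so the counted RNA of the last did not show the returned gene. The study reports a low but detectable amount of caveolin-1 protein in Cav1-RC lungs by western blot. Whether the counts of Cav1 take in RNA of the transgene was not tested. Of the libraries labelled male, 3 had Xist at 752 to 874 CPM and went against their label, against 0.371 to 4.27 CPM in the other 15. These are replicates 1 and 2 of normoxic Cav1-RC and replicate 2 of hypoxic Control. Replicate 2 of the hypoxic Cav1-KO females held Y-linked genes at 17.5 CPM in sum beside Xist at 714 CPM. In addition, 12 of the 34 libraries came from animals that are on the study's western blot source list, and these 12 stood apart from the other 22 on the first principal component of all genes, which held 29.5% of the variance (scores of -89.2 to -43.4 against -5.12 to 63.6). All 6 hypoxic Cav1-KO libraries and all 3 hypoxic Control male libraries are on the list, none of the normoxic Cav1-KO or hypoxic Cav1-RC libraries is, so that in such groups condition and list cannot be told apart. The number of listed libraries is therefore given beside the results it touches.

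Promoter sequence was available for 9 of the 10 genes, in 12 windows of 300 bases around the RefSeq starts in GRCm38.p6. The 250 bases before the start are shown for the genes the results turn on, 5′ to 3′ on the strand of the gene, with Ear1 added because its window is nearly a copy of that of Ear2. Capitals mark GAGGAA, the core that the macrophage factor PU.1 reads, and TGCTGA, the core that MAF factors read, searched on both strands.
Chil3, chr3:106167565-106167814, minus strand: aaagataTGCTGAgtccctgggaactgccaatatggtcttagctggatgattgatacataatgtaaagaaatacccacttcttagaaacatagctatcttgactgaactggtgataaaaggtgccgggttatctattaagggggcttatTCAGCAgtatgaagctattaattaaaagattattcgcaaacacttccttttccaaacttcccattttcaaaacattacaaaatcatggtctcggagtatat
Ear2, chr14:44102404-44102653, plus strand: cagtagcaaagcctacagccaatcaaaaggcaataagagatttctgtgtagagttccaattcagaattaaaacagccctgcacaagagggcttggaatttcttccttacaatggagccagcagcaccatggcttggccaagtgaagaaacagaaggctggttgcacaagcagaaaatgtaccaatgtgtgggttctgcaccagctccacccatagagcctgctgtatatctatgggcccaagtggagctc
Ear1, chr14:43819640-43819889, minus strand: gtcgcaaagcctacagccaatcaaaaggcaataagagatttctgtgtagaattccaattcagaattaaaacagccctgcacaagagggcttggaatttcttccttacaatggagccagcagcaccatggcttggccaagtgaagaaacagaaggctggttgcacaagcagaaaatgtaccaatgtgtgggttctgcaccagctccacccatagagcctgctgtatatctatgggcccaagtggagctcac
C1qb, chr4:136886201-136886450, minus strand: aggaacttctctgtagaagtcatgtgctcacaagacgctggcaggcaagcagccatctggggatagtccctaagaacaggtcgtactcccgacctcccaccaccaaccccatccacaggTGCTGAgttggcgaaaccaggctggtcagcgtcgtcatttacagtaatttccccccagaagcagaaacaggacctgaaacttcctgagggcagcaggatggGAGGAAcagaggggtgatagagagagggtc
Ly6c2, chr15:75111972-75112221, minus strand: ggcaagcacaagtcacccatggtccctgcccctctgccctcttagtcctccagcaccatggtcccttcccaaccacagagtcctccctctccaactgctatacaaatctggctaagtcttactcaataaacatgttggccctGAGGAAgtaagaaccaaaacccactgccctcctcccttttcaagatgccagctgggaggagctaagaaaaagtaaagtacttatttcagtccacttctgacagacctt
The windows of Ear2 and Ear1 aligned over 303 columns with 294 identical positions (97%). The window of Ly6c2 and that of its neighbour Ly6c1 shared 63.6% of 335 columns. GAGGAA lay in 7 of the 12 windows of the genes and in 28.3% of 32851 windows of the same length over the genome, and TGCTGA in 2 of the 12 and in 19.5% of all windows. A match of letters is a description of the window and not of a binding site. The 3 C1q genes are neighbours on the minus strand of chromosome 4, in a stretch of 18675 bases (mm10), with 3616 bases between C1qb and C1qc and 2851 bases between C1qc and C1qa.

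Close copies could share reads in the counting. Of the runs of 150 bases in the transcripts of Ear2, 6.32% also occur in Ear10, whose own level was at most 0.0834 CPM in every library. For Ly6c2, 1.42% of runs also occur in Ly6c1. No run of Chil3, Marco, Mrc1, Pparg or the 3 C1q genes was shared with another gene. Ly6c1 is also a gene of endothelial cells and was read at 202 CPM or more in every library.

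Per length of transcript, Chil3 was the most abundant of the 10 genes, with a median of 148 FPKM (fragments per kilobase of transcript, scaled to library size) over the 34 libraries. C1qa followed with 47.9 FPKM, Ear2 with 42.1 FPKM, C1qb with 34 FPKM and C1qc with 18.5 FPKM. Mrc1 had a median of 8.36 FPKM, Ccr2 of 5.05, Pparg of 3.64, Ly6c2 of 3.47 and Marco of 3.25. All were expressed in every library. Chil3 and Marco varied most between libraries: the highest CPM of Chil3 was 46.7 times the lowest and that of Marco 26.6 times. For the other alveolar genes the ratio was 7.66 (Ear2), 5.86 (Mrc1) and 4.33 (Pparg). The C1q genes spanned 3.49-fold (C1qa), 4.23-fold (C1qb) and 4.22-fold (C1qc), Ccr2 3.73-fold and Ly6c2 15.3-fold.

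Much of the spread of the alveolar genes lay within single groups. In the hypoxic Cav1-RC females, Chil3 stood at 124, 3434 and 917 CPM, a 27.7-fold range within 1 group. The hypoxic Control females read 171, 2379 and 1458 CPM of Chil3, 21.3, 144 and 119 CPM of Ear2, 3.09, 39.2 and 18.0 CPM of Marco, 42.7, 199 and 167 CPM of Mrc1 and 7.11, 30.8 and 24.3 CPM of Pparg. Replicate 1 of that group, low for all 5 genes, is the only 1 of its 3 libraries on the western blot list. In the hypoxic Cav1-RC females, of which none is on the list, replicate 1 was also the lowest for Chil3, Ear2, Mrc1 and Pparg. When the 12 groups were ordered by their mean, 10 or 11 of the 11 pairs of neighbours in the order overlapped for each of the 10 genes. The highest mean was in the hypoxic Control females for Marco, Mrc1 and Pparg, in the hypoxic Cav1-RC females for Chil3, the 3 C1q genes and Ly6c2, in the normoxic Cav1-KO females for Ear2 and in the normoxic Control males for Ccr2.

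**Figure D1:**
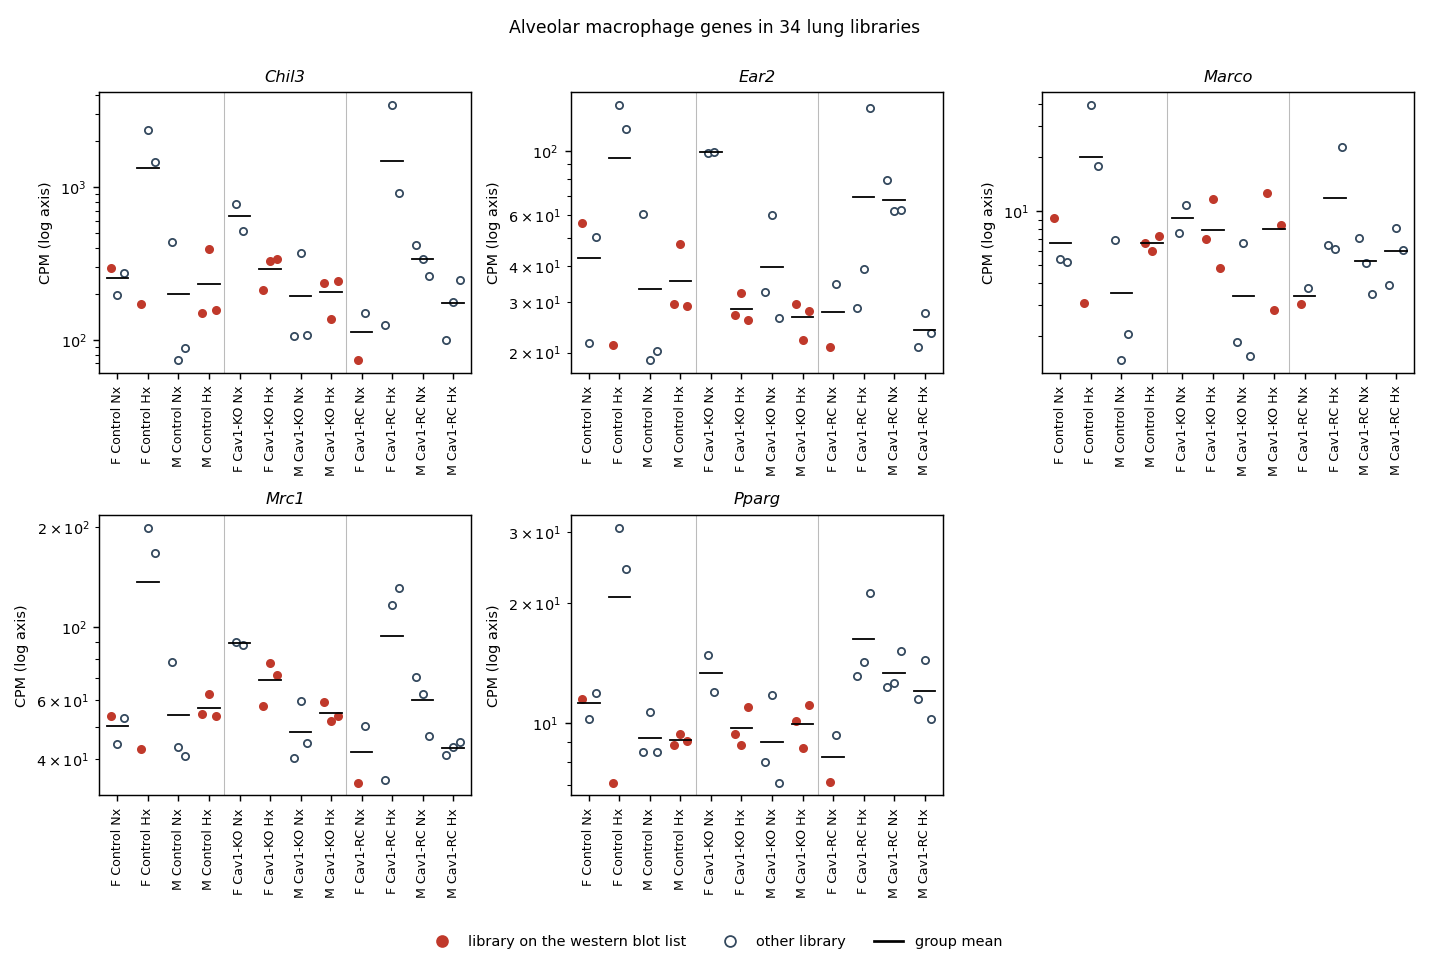
CPM (log axis) of the 5 alveolar macrophage genes in each of the 34 libraries, grouped by sex, genotype and oxygen, with the group mean as a line and libraries on the western blot list in another colour. Chil3 reaches 3434 CPM in 1 hypoxic Cav1-RC female and 2379 CPM in 1 hypoxic Control female, and the listed hypoxic Control female is the lowest of its group for all 5 genes.

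Hypoxia was set against normoxia within each sex and genotype by edgeR's quasi-likelihood test, and a call needed an adjusted p under 0.05 over all genes tested and a log2 fold change beyond 1 in either direction. Ear2 and Chil3 fell in the hypoxic Cav1-KO females and Ear2 fell in the hypoxic Cav1-RC males, while none of the 10 genes was called in Control mice of either sex. Of the 10 genes, 2 were called in Cav1-KO females, where 13.3% of all genes tested were called, 1 in Cav1-RC males (2.27% of all genes) and 0 in Cav1-KO males (17.7%), Control males (6.36%), Control females (0.0175%) and Cav1-RC females (0.0285%). Beside the counts of 0, an unadjusted p under 0.05 was met by 2 of the 10 genes in Cav1-KO males (60.5% of all genes) and 1 in Control males (36.1%). It was met by 3 in Control females (4.79%) and 5 in Cav1-RC females (5.2%). The Wald test of DESeq2 called 0 in each of these 4 comparisons.

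Ear2 stood at 98.5 and 99.6 CPM in the normoxic Cav1-KO females and at 27.0, 32.1 and 25.9 CPM in the hypoxic ones. The groups did not overlap, and the log2 fold change was -1.83 (SE 0.11, adjusted p = 0.000409). Chil3 stood at 776 and 514 CPM in normoxia and at 210, 328 and 337 CPM in hypoxia in the same mice, again without overlap (log2 fold change -1.16, SE 0.25, adjusted p = 0.0114). All 3 hypoxic and none of the normoxic Cav1-KO females are on the western blot list. Without replicate 1 of the normoxic Cav1-KO females, the library with the highest Chil3, the value for Chil3 was -0.85 with an adjusted p of 0.0999, with 1 normoxic library left that is assumed to vary like the hypoxic ones, and without replicate 1 of the hypoxic ones it was -0.97, so that either library decides the call.

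The normoxic Cav1-KO females had the highest mean of Ear2 of all 12 groups, at 99.1 CPM, and the hypoxic Control females the next. In Cav1-KO males, Ear2 read 32.4, 60.2 and 26.3 CPM in normoxia and 29.6, 22.1 and 27.8 CPM in hypoxia, with overlap (log2 fold change -0.60, SE 0.27, adjusted p = 0.0852). Chil3 in these males read 106, 369 and 107 CPM in normoxia and 237, 137 and 243 CPM in hypoxia (0.06, SE 0.45, adjusted p = 0.92). The difference between the sexes was not past the threshold for any of the 10 genes in any of the 9 comparisons tested for it. The smallest adjusted p of these tests was 0.193, for Ear2 in Cav1-RC against Cav1-KO in normoxia. The normoxic Cav1-RC males in that test and the hypoxic Control males in others hold libraries that went against their sex label. The tests of the sexes were not run without these libraries. As a mean of the sexes, Ear2 was called lower in hypoxic Cav1-KO mice (log2 fold change -1.22, SE 0.18, adjusted p = 9.84e-05), the only 1 of the 10 genes called there, against 17.6% of all genes, and all 6 hypoxic and none of the 5 normoxic libraries are on the list. Over both sexes the Ear2 groups overlap at the males.

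In Cav1-RC males, Ear2 stood at 79.5, 61.9 and 62.2 CPM in normoxia and at 20.9, 27.5 and 23.5 CPM in hypoxia. The groups did not overlap (log2 fold change -1.49, SE 0.13, adjusted p = 0.000925), and none of the 6 libraries is on the western blot list. The normoxic group holds 2 of the libraries that went against their sex label, and without them, with 1 normoxic library left that is assumed to vary like the others, the value was -1.38 (adjusted p = 0.0274). Sums of several other cell lists also differed without overlap in these males. Among them, the neutrophil list was at 291 to 709.7 CPM in hypoxia and 161 to 202 CPM in normoxia. The classical monocyte list was at 1099 to 1554 CPM against 791 to 975 CPM. The erythroid list was at 388 to 831 CPM against 2563 to 4640 CPM. The B cell list was at 76.7 to 89.7 CPM against 123 to 138 CPM. The lymphatic endothelial list was at 275 to 354 CPM against 548 to 591 CPM. Further lists, such as that of T cells, did not overlap either. The part of all these cells in Ear2 was not tested. The neighbour of Ear2, Ear1, went the same way, with 16.1 to 19.9 CPM in normoxia and 5.88 to 7.43 CPM in hypoxia (log2 fold change -1.47, SE 0.14, adjusted p = 0.00163). Chil3 in these males was at 419.5, 337 and 262 CPM in normoxia and at 99.7, 177 and 244 CPM in hypoxia, without overlap but short of the threshold (-0.95, SE 0.29, adjusted p = 0.0764). In Cav1-RC females the 5 alveolar genes had positive values instead, from 0.96 (Pparg) to 3.71 (Chil3, SE 1.20), with adjusted p of 0.782 to 0.94 for these 5 genes. The Ear2 levels there were 21.0 and 34.5 CPM in normoxia and 28.6, 38.9 and 141 CPM in hypoxia.

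In Control mice none of the alveolar genes passed the test for hypoxia, and their positive values lay mostly in females. In females they were 2.35 for Chil3, 1.55 for Marco, 1.39 for Mrc1, 1.11 for Ear2 and 0.84 for Pparg, with an adjusted p of 0.871 for each. In males they were 0.24 for Chil3, 0.93 for Marco, 0.08 for Mrc1, 0.10 for Ear2 and -0.01 for Pparg, with adjusted p of 0.231 to 0.973. The mean of the sexes was 1.32 for Chil3 (SE 0.59, adjusted p = 0.348), 1.26 for Marco, 0.75 for Mrc1, 0.62 for Ear2 and 0.43 for Pparg. None of the 10 genes was called, against 0.846% of all genes. An unadjusted p under 0.05 was met by 4 of the 10, against 13.6% of all genes, and the Wald test called 0. Of these libraries, 4 of the 6 hypoxic and 1 of the 6 normoxic are on the western blot list. In Cav1-RC mice none of the 10 was called as a mean of the sexes either (1.22% of all genes). There 5 had an unadjusted p under 0.05, against 15.2% of all genes, and the Wald test called 1 of the 10. None of the 6 hypoxic and 1 of the 5 normoxic libraries of Cav1-RC mice is on the list. The median log2 fold change of the 10 genes was 0.29 for Control mice, -0.31 for Cav1-KO mice and 0.37 for Cav1-RC mice, beside medians of -0.0024, 0.025 and -0.013 over all genes.

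C1qb was the only C1q gene that passed the adjusted p for hypoxia, and it stayed under the threshold on the fold change. In Cav1-KO males it read 43.8, 41.8 and 44.2 CPM in normoxia and 25.3, 28.5 and 27.8 CPM in hypoxia (log2 fold change -0.70, SE 0.09, adjusted p = 0.000313). In Cav1-KO females it read 68.5 and 49.0 CPM in normoxia and 34, 36.0 and 44.5 CPM in hypoxia (-0.64, SE 0.18, adjusted p = 0.0284). Neither pair of groups overlapped. C1qa and C1qc in the same comparisons had values between -0.15 and -0.03, with adjusted p of 0.459 or more. Ccr2 was lower in hypoxic Cav1-KO males, at 27.1, 30.9 and 31.0 CPM against 37.8, 33.8 and 36.5 CPM (-0.31, SE 0.10, adjusted p = 0.0266), also under the fold threshold. The adjusted p alone was passed by 38.2% of all genes in the Cav1-KO females and 55.1% in the males, beside 3 and 2 of the 10 genes. Ly6c2 in Cav1-KO mice had -0.49 in females and -0.41 in males, with adjusted p of 0.247 and 0.158.

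The C1q genes can be read against each other, since their products join in 1 protein. The ratio of C1qc to C1qa in FPKM was 0.302 to 0.475 in the 12 listed libraries (median 0.389) and 0.312 to 0.473 in the other 22 (median 0.392). The ratio of C1qb to C1qa was 0.508 to 0.682 in the listed libraries (median 0.620) and 0.639 to 1.02 in the others (median 0.868). The listed and other ranges of C1qb to C1qa overlapped, and list and group are largely confounded. In the 3 groups with both kinds, all of females with 1 listed library each, the listed library was the lowest: 0.508 against 0.886 in normoxic Cav1-RC, 0.643 against 0.834 and 0.911 in hypoxic Control, and 0.558 against 0.639 and 0.966 in normoxic Control. All 6 hypoxic Cav1-KO libraries are on the list, and the part of the list in the lower C1qb was not tested.

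**Figure D2:**
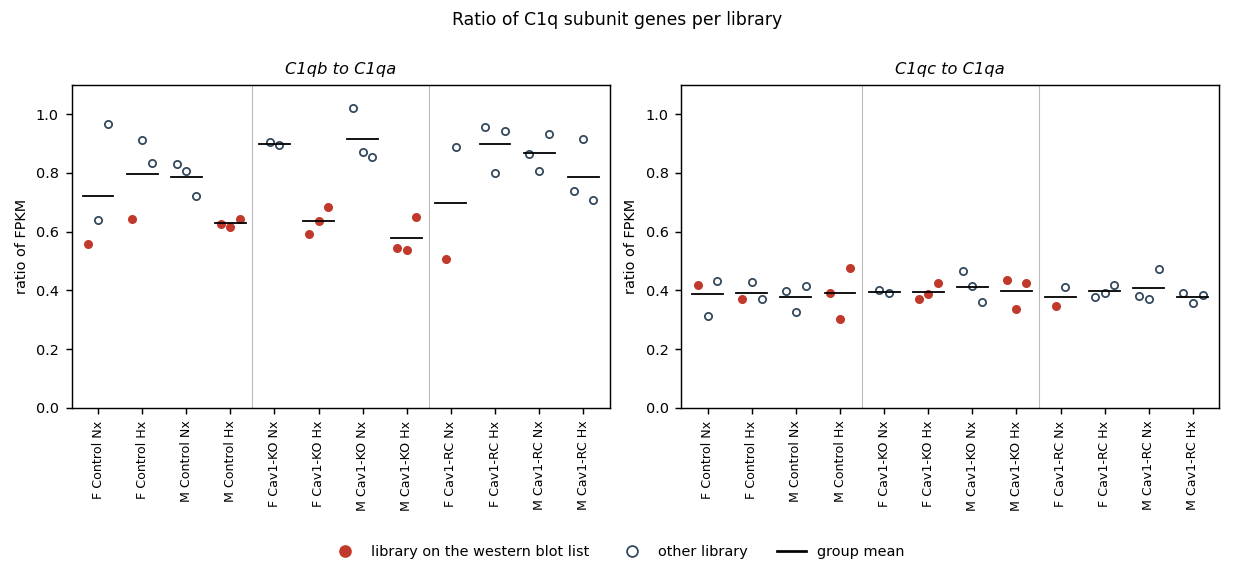
Ratio of C1qb to C1qa and of C1qc to C1qa in FPKM per library, by group, with libraries on the western blot list in another colour and group means as lines. C1qb to C1qa is 0.508 to 0.682 in listed and 0.639 to 1.02 in other libraries, while C1qc to C1qa has medians of 0.389 and 0.392.

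Cav1-KO was next compared with Control at each oxygen level, to see what the loss of caveolin-1 changed. None of the 10 genes was called in either sex in either oxygen level. All genes were called at 0.122% in normoxic females, 0.768% in hypoxic females, 5% in normoxic males and 0.929% in hypoxic males. Of the 10 genes, 5, 5, 2 and 1 had an unadjusted p under 0.05 in these comparisons, against 11.5%, 29%, 29.1% and 19.5% of all genes. The Wald test called 2, 1, 1 and 1 of the 10. As a mean of the sexes none was called in normoxia (5.78% of all genes) and 1, Ly6c2, in hypoxia (4.14% of all genes). In normoxia 3 of the 10 had an unadjusted p under 0.05, against 31.2% of all genes, and the Wald test called 0.

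In hypoxic females 1 library decided the count. The alveolar genes had values of -2.21 for Chil3 (SE 0.80, adjusted p = 0.132), -1.76 for Ear2, -1.36 for Marco, -1.1 for Pparg and -0.99 for Mrc1 there, with adjusted p of 0.122 to 0.273. Without replicate 1 of the hypoxic Control females, the low and listed library described above, 6 of the 10 genes were called lower in Cav1-KO: Chil3 (-2.73, adjusted p = 0.000284), Ear2 (-2.24, adjusted p = 4.83e-05), Marco (-1.88), Mrc1 (-1.42), Pparg (-1.52) and Ly6c2 (-1.39), the last 4 with adjusted p of 0.000312 to 0.00756. All 3 Cav1-KO and neither of the remaining Control libraries are then on the list, so that genotype and list cannot be told apart. The share of all genes called without that library is not given here, so the 6 calls are no result about the 10 genes as a set.

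Ly6c2 was lower in hypoxic Cav1-KO than in hypoxic Control mice (log2 fold change -1.18, SE 0.36, adjusted p = 0.0458). It stood at 4.02, 5.35 and 8.04 CPM in hypoxic Cav1-KO females and at 5.94, 13.9 and 16.3 CPM in hypoxic Control females. The males read 5.11, 4.71 and 5.72 CPM as Cav1-KO and 20.7, 4.14 and 12.9 CPM as Control. The groups overlapped in both sexes, and 9 of the 12 single libraries end the call when left out. Of these libraries, all 6 Cav1-KO and 4 of the 6 Control are on the western blot list, and in males, where all 6 are, the value was -1.31 (SE 0.46, adjusted p = 0.178). The lowest Control male, replicate 2, is a library that went against its sex label, and without it the mean of the sexes was -1.39 (adjusted p = 0.0163). In males the summed T cell list stood at 32.7 to 42.9 CPM in Cav1-KO and 52.5 to 88.8 CPM in Control, the B cell list at 40.8 to 57.4 CPM against 63.4 to 177 CPM and the adipocyte list at 15.2 to 23.1 CPM against 89.4 to 126 CPM, none overlapping. In females the T and B cell sums overlapped. The part of these cells in Ly6c2 was not tested.

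Other genes passed the adjusted p and not the fold threshold. C1qb was higher in normoxic Cav1-KO mice as a mean of the sexes (0.66, SE 0.15, adjusted p = 0.0172), with 68.5 and 49.0 CPM against 29.9, 24.5 and 31.4 CPM in females, and 43.8, 41.8 and 44.2 CPM against 43.5, 37.7 and 24.5 CPM in males. The females did not overlap, and 1 of the 3 normoxic Control females is on the list. It was the 1 gene of the 10 past the adjusted p there, against 13.2% of all genes. Ccr2 was lower in normoxic Cav1-KO males, with 37.8, 33.8 and 36.5 CPM against 58.4, 59.8 and 42.1 CPM (-0.56, SE 0.15, adjusted p = 0.0461), and none of these 6 libraries is on the list. Ccr2 was the 1 gene of the 10 past the adjusted p in that comparison, against 11.4% of all genes. Among the alveolar genes, Ear2 in hypoxia came nearest, at -1.1 as a mean of the sexes (SE 0.35, adjusted p = 0.0551), with all 6 Cav1-KO and 4 of the 6 Control libraries on the list.

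The comparison of Cav1-RC with Cav1-KO asked what endothelial caveolin-1 changed. Its limit is that the counted Cav1 RNA of the libraries labelled Cav1-RC was at the level of the knockout. Ly6c2 was higher in Cav1-RC mice in hypoxia in both sexes and in normoxia in males. It was the only 1 of the 10 genes called, in hypoxic females (8.98% of all genes called), hypoxic males (14.8%) and normoxic males (3.59%). None was called in normoxic females (0.1% of all genes). There 4 of the 10 had an unadjusted p under 0.05, against 8.73% of all genes, and the Wald test called 3 of the 10.

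In hypoxic females, Ly6c2 stood at 14, 61.3 and 27.7 CPM in Cav1-RC and at 4.02, 5.35 and 8.04 CPM in Cav1-KO mice, without overlap (log2 fold change 2.55, SE 0.51, adjusted p = 0.0128). In hypoxic males it stood at 10.6, 20 and 23.1 CPM against 5.11, 4.71 and 5.72 CPM, again without overlap (1.78, SE 0.28, adjusted p = 0.00135). In both, all Cav1-KO and no Cav1-RC libraries are on the western blot list. The female call was lost without replicate 1 (2.34, adjusted p = 0.0511) or replicate 2 (2.50, adjusted p = 0.0516) of the Cav1-KO mice, and without replicate 2 of Cav1-RC, the highest library, the value was 1.87 (adjusted p = 0.0214). As a mean of the sexes the value was 2.17 (SE 0.32, adjusted p = 0.000171), the 6 Cav1-RC libraries lay above the 6 Cav1-KO libraries, and Ly6c2 was the 1 gene of the 10 called, against 14.7% of all genes.

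In normoxic males, where none of the 6 libraries is on the list, Ly6c2 stood at 11.8, 14.9 and 15.7 CPM in Cav1-RC and at 8.45, 7.24 and 4.74 CPM in Cav1-KO mice (log2 fold change 1.05, SE 0.20, adjusted p = 0.00629). The groups did not overlap. The value lies near the fold threshold and fell under it without replicate 3 of Cav1-KO (0.84) or replicate 3 of Cav1-RC (0.96). Without the libraries that went against their sex label it was 1.21 (adjusted p = 0.00513), with 1 Cav1-RC library left that is assumed to vary like the others. In the same males the summed B cell list stood at 123 to 138 CPM in Cav1-RC and 48.8 to 73.7 CPM in Cav1-KO, the neutrophil list at 161 to 202 CPM against 46.2 to 101 CPM and the T cell list at 67.5 to 78.6 CPM against 39.0 to 50.4 CPM. None of the 3 lists overlapped, and their part in Ly6c2 was not tested. As a mean of the sexes in normoxia the value of Ly6c2 was 0.68 (SE 0.19, adjusted p = 0.0546). None of the 10 genes was called there, against 4.28% of all genes. An unadjusted p under 0.05 was met by 4 of the 10, against 24.4% of all genes, and the Wald test called 0.

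**Figure D3:**
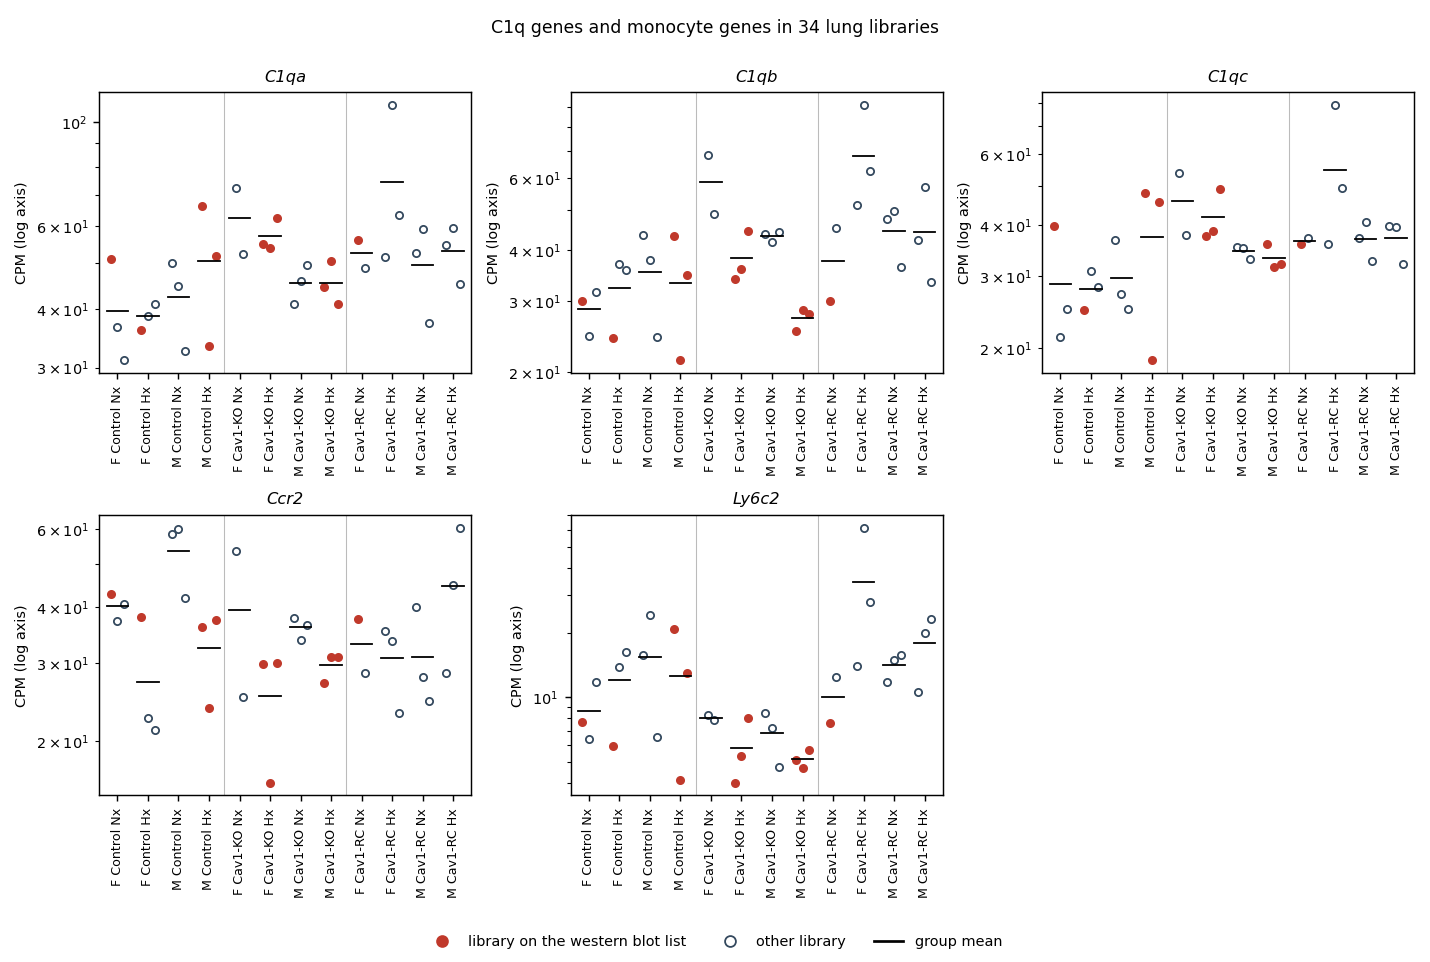
CPM (log axis) of the 3 C1q genes, Ccr2 and Ly6c2 in each of the 34 libraries, by sex, genotype and oxygen, with group means as lines and libraries on the western blot list in another colour. Ly6c2 stands at 10.6 to 61.3 CPM in the 6 hypoxic Cav1-RC libraries and at 4.02 to 8.04 CPM in the 6 hypoxic Cav1-KO libraries.

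Ccr2, the other monocyte gene, was not called in these comparisons. Its values were 0.27 in hypoxic females and 0.58 in hypoxic males (SE 0.23, adjusted p = 0.0683), and -0.22 in normoxic males. C1qb was higher in hypoxic Cav1-RC than Cav1-KO mice, at 51.5, 90.7 and 62.4 CPM against 34, 36.0 and 44.5 CPM in females (0.83, SE 0.22, adjusted p = 0.031) and at 42.2, 57.0 and 33.4 CPM against 25.3, 28.5 and 27.8 CPM in males (0.70, SE 0.18, adjusted p = 0.0131). Neither sex overlapped, and C1qa and C1qc had adjusted p of 0.19 to 0.327. Pparg was higher as a mean of the sexes in hypoxia (0.51, SE 0.15, adjusted p = 0.0112), and Mrc1 was lower in hypoxic males (-0.36, SE 0.09, adjusted p = 0.0138), at 41.2, 43.5 and 44.8 CPM against 59.2, 52.1 and 53.7 CPM. In these hypoxic comparisons all Cav1-KO and no Cav1-RC libraries are on the list. The adjusted p alone was passed by 20.8% of all genes in hypoxic females, 44.5% in hypoxic males and 52.6% as a mean of the sexes, beside 2, 3 and 3 of the 10 genes.

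In normoxic females, the alveolar genes were all lower in Cav1-RC than in Cav1-KO without passing the test. Chil3 stood at 74.1 and 149 CPM against 776 and 514 CPM (log2 fold change -2.53, SE 0.42, adjusted p = 0.2) and Ear2 at 21.0 and 34.5 CPM against 98.5 and 99.6 CPM (-1.83, SE 0.28, adjusted p = 0.16). Neither overlapped. In this comparison 0.1% of all genes were called, and 1 of the 2 Cav1-RC and none of the 2 Cav1-KO libraries is on the list. With any 1 of the 4 libraries left out, the value was -3.12 to -2.12 for Chil3 and -2.24 to -1.53 for Ear2. These fits leave 1 library in a group and assume that it varies like the others.

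Cav1-RC was finally set against Control, the comparison that shows how far the reconstituted mice stood from wildtype. None of the 10 genes was called in normoxic females (0.137% of all genes), hypoxic females (0.832%), normoxic males (2.45%) or hypoxic males (9.9%). An unadjusted p under 0.05 was met by 2, 4, 3 and 3 of the 10, against 4.18%, 8.43%, 23.1% and 47.4% of all genes. The Wald test called 1 in hypoxic females and 0 in the other 3 comparisons. As a mean of the sexes none was called in normoxia (2.28%) or hypoxia (3.73%). There 1 and 3 of the 10 had an unadjusted p under 0.05, against 13.1% and 28.2% of all genes, and the Wald test called 0. In hypoxic females, C1qa, C1qb and C1qc had log2 fold changes of 0.96, 1.1 and 0.99, with adjusted p of 0.251, 0.155 and 0.252. C1qa there was at 51.5, 109 and 63.3 CPM against 36.1, 38.7 and 41.0 CPM, without overlap, with 1 of the 3 Control and no Cav1-RC library on the list. Mrc1 was lower in hypoxic Cav1-RC than Control males, at 41.2, 43.5 and 44.8 CPM against 54.4, 62.7 and 54.0 CPM (-0.41, SE 0.10, adjusted p = 0.0155). All 3 Control and none of the Cav1-RC males there are on the list, and 37% of all genes passed the adjusted p. C1qb as a mean of the sexes in hypoxia was 0.75 (SE 0.20, adjusted p = 0.0421), where 9.06% of all genes passed it and 4 of the 6 Control and no Cav1-RC libraries are on the list.

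**Figure D4:**
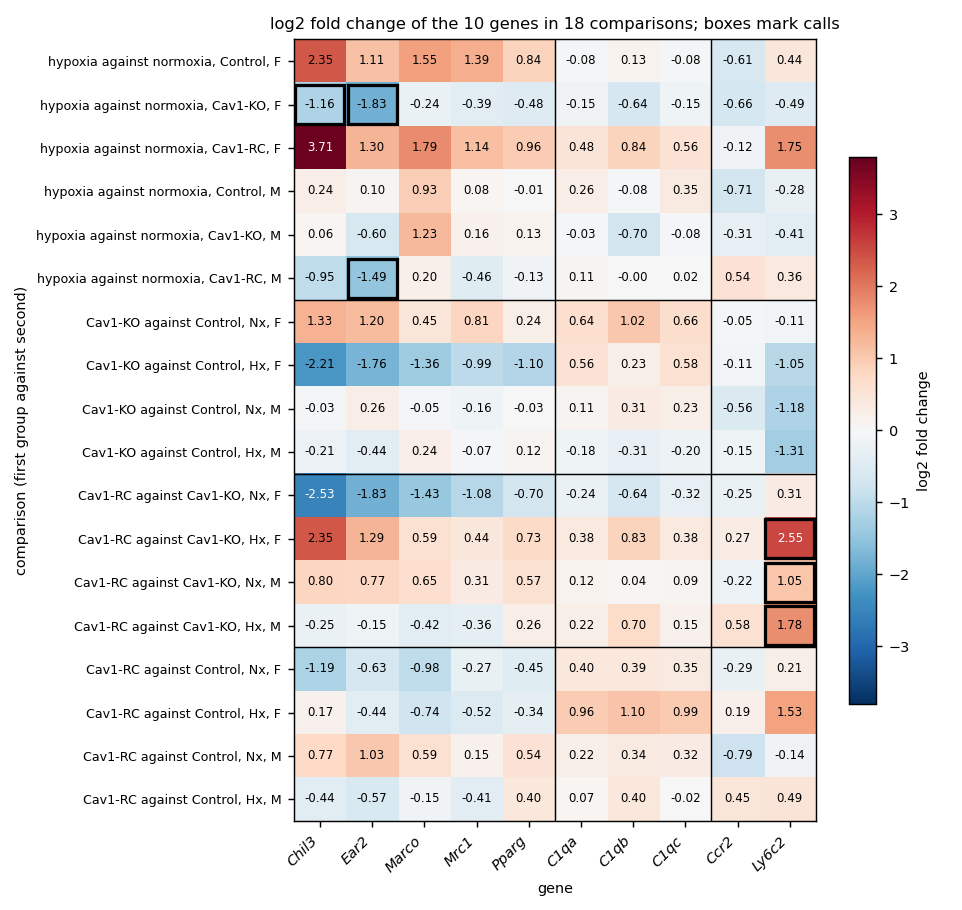
log2 fold change of the 10 genes (columns) in the 18 comparisons within 1 sex (rows), from red for higher to blue for lower in the first group, with a box around each call. The 6 boxes are Ear2 and Chil3 in hypoxic Cav1-KO females, Ear2 in hypoxic Cav1-RC males, and Ly6c2 in Cav1-RC against Cav1-KO in hypoxic females, hypoxic males and normoxic males.

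The hypoxia response itself differed between genotypes for some of the 10 genes, in a test of the difference with the sexes averaged. The response of Ear2 was lower in Cav1-KO than in Control mice by 1.85 on the log2 scale (difference -1.85, SE 0.54, adjusted p = 0.0257). It was the only 1 of the 10 called there, against 8.46% of all genes. Between Cav1-RC and Cav1-KO, the response was higher in Cav1-RC mice for Chil3 (1.92, SE 0.74, adjusted p = 0.0428), Ear2 (1.11, SE 0.43, adjusted p = 0.0427), C1qb (1.08, SE 0.23, adjusted p = 0.00121) and Ly6c2 (1.5, SE 0.42, adjusted p = 0.00855). These are 4 of the 10 genes, against 17% of all genes. None of the 10 was called between Cav1-RC and Control, where 0.0934% of all genes were. There 1 of the 10, Ccr2, had an unadjusted p under 0.05, against 10.9% of all genes. The differences share the Cav1-KO libraries, of which the hypoxic ones are all on the western blot list and the normoxic ones are not.

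When 1 edgeR fit was made over all 34 libraries with a term for the western blot list, none of the 14 calls passed the test. The term is estimated only from the female groups that hold both kinds of library: normoxic and hypoxic Control and normoxic Cav1-RC. Where list and group coincide, it carries that offset over, also to males. A lost call can therefore not be assigned to the list, and the part of the list was not tested. For Ly6c2 in Cav1-RC against Cav1-KO, the value in that fit was 1.78 in hypoxic females (adjusted p = 0.120), 1.01 in hypoxic males (adjusted p = 0.424) and 1.03 in normoxic males (adjusted p = 0.382). For Ear2 it was -1.12 in hypoxic Cav1-KO females (adjusted p = 0.614) and -1.51 in hypoxic Cav1-RC males (adjusted p = 0.175). For Chil3 in hypoxic Cav1-KO females it was -0.07 (adjusted p = 0.994). The differences of the hypoxia response between Cav1-RC and Cav1-KO were 0.60 for Chil3, 0.26 for Ear2, 0.66 for C1qb and 0.56 for Ly6c2 with the term (adjusted p of 0.488 to 0.951), and in the fit over all libraries without it Chil3 and Ear2 also missed the test (adjusted p = 0.0806 and 0.130). The difference of Ear2 between Cav1-KO and Control was -1.35 with the term (adjusted p = 0.225). The Ear2 value of the Cav1-RC males and the Ly6c2 value of the normoxic males come from libraries that are all off the list. The term has no offset to take out there, so their size could hardly change. Both missed the test also in the fit over all libraries without the term (adjusted p = 0.303 and 0.539). The estimate of the spread in that fit takes in all groups.

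The fit with the term also called 6 values that the fit of the groups compared did not. In hypoxic against normoxic Control mice these were Marco (1.47, adjusted p = 0.0488) and Mrc1 (1.05, adjusted p = 0.0109) as means of the sexes and Mrc1 in females (1.21, adjusted p = 0.0396). In hypoxic Cav1-RC against Control females they were C1qa (1.00, adjusted p = 0.0111) and C1qc (1.01, adjusted p = 0.0207). The last was the difference of the hypoxia response of Ccr2 between Cav1-RC and Control (1.19, adjusted p = 0.0273). The share of all genes called in the fit with the term is not given here. The 6 calls are therefore no result about the genes followed here as a set.

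**Figure D5:**
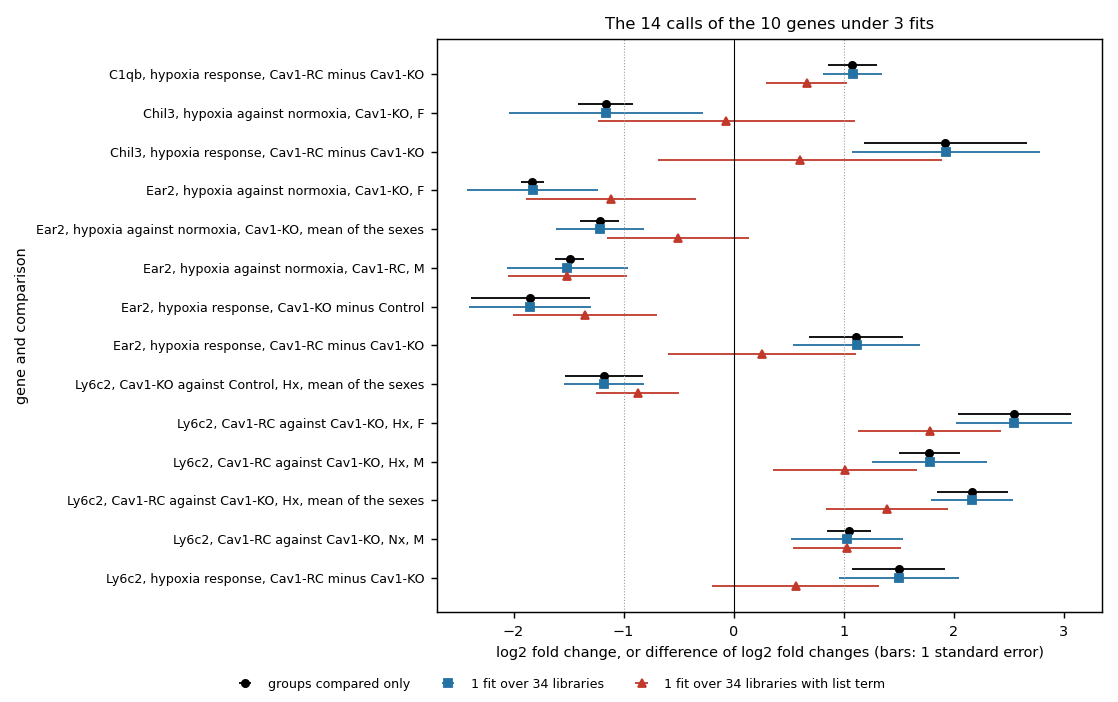
log2 fold change, or difference of log2 fold changes, of the 14 calls (1 row each) with bars of 1 standard error, in the fit of the groups compared, in 1 fit over 34 libraries and in that fit with a term for the western blot list. Ly6c2 in hypoxic Cav1-RC against Cav1-KO males moves from 1.78 to 1.01 with the term, and Chil3 in hypoxic Cav1-KO females from -1.16 to -0.07. Ear2 in hypoxic Cav1-RC males reads -1.49 to -1.51, where all libraries are off the list and the term could hardly change the value.

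Further genes of the same cells were read as lists. In Cav1-KO mice in hypoxia, as a mean of the sexes, 3 of 16 other alveolar macrophage genes were called lower and none higher (median log2 fold change -0.68, against 0.025 over all genes): Fabp1 (-1.23), a fatty acid binding protein, Csf2rb2 (-1.1), a subunit of the IL-3 receptor, and Olr1 (-1.05), a lipoprotein receptor. Of 12 genes shared by macrophages, 4 were called lower (median -0.59), among them Adgre1 (-1.27), which encodes F4/80, Lyz2 (-1.30), the lysozyme of myeloid cells, and Spi1 (-1.07), which encodes PU.1. Of 17 other interstitial macrophage genes 1 was called higher, Pf4 (1.92), a chemokine also abundant in platelets, and 1 lower, Folr2 (-1.23), a folate receptor (median -0.38). All of this stands against 17.6% of all genes called, and all 6 hypoxic and none of the 5 normoxic libraries are on the western blot list.

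Monocyte genes were read in the same comparison, where 17.6% of all genes were called. Of 10 other classical monocyte genes, 3 were called lower and 1 higher in hypoxic Cav1-KO mice (median -0.38), with Plac8 at -2.11, Ms4a6c at -1.27 and Hp, which encodes haptoglobin, at 1.34. The summed level of these 10 genes went the other way, at 1794 to 2073 CPM in hypoxia against 782 to 784 CPM in normoxia in females. In males it was at 1448 to 2214 CPM against 818 to 834 CPM, and neither sex overlapped. A sum follows the most abundant genes of a list, here and for every other summed list, and the share of single genes in it was not tested. Of 10 nonclassical monocyte genes, 5 were called lower and 1 higher (median -0.89), among them Adgre4 (-1.92), Spn (-1.23) and Itgal (-1.07). In the same comparison 5 of 9 neutrophil genes were called higher (median 1.47), with Camp at 3.17 and Ngp at 2.77, and 5 of 6 erythroid genes (median 2.42). The part of these cells in the values of the 10 genes was not tested.

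In hypoxic Cav1-RC against Cav1-KO mice, part of the monocyte genes were called higher beside Ly6c2, while the summed level of the classical list was lower. Of the 10 other classical monocyte genes 5 were called higher and none lower (median 1.04, against -0.0036 over all genes), including Plac8 (2.14) and Ms4a6c (1.66). The summed level of these 10 genes was 1036 to 1554 CPM in hypoxic Cav1-RC and 1794 to 2073 CPM in hypoxic Cav1-KO females, without overlap, and 1099 to 1554 CPM against 1448 to 2214 CPM in males. Of the 10 nonclassical genes 7 were called higher (median 1.21), including Cd300e (3.70), Adgre4 (2.63) and Spn (1.70). Of the 12 genes shared by macrophages 4 were called higher (median 0.55), with Spi1 at 1.12, Adgre1 at 1.06 and Lyz2 at 1.04, and of the 16 other alveolar genes 2, Cidec (1.28) and Fabp1 (1.24), with a median of 0.18. The ligands of CCR2 had 0 of 4 called. In this comparison 14.7% of all genes were called, and all 6 Cav1-KO and no Cav1-RC libraries are on the list. Over the 34 libraries the summed classical list had a median of 1882 CPM on the list and 1038 CPM off it.

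Genes of other cells moved in the same comparison. Neutrophil genes were called higher in 8 of 10 (median 1.64), T cell genes in 5 of 8 (median 1.06) and B cell genes in 3 of 6 (median 0.99), and erythroid genes were called lower in 4 of 6 (median -1.98). In this comparison 14.7% of all genes were called. The summed level of the B cell list was 124 to 159 CPM in hypoxic Cav1-RC and 34 to 108 CPM in hypoxic Cav1-KO females, and 76.7 to 89.7 CPM against 40.8 to 57.4 CPM in males. That of the T cell list was 81.3 to 83.5 CPM against 25.0 to 55.0 CPM in females and 54.1 to 62.4 CPM against 32.7 to 42.9 CPM in males. Neither list overlapped in either sex. The summed neutrophil list, at 351 to 549 CPM against 69.4 to 588 CPM in females and 291 to 709.7 CPM against 75.5 to 334.1 CPM in males, overlapped in both. The part of these cells in Ly6c2 was not tested.

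Some monocyte genes were also called higher in hypoxic Cav1-RC than in hypoxic Control mice, where Ly6c2 itself was not called (1.01, SE 0.43, adjusted p = 0.148). Of the classical genes 4 of 10 were called higher (median 0.71) and of the nonclassical genes 6 of 10 (median 1.39), against 3.73% of all genes, while 0 of the 16 other alveolar genes and 0 of the 12 shared macrophage genes were called. The summed level of the classical genes had a lower median in Cav1-RC, at 1095 against 1482 CPM in females and 1362 against 1722 CPM in males, with overlap in both. That of the nonclassical genes was lower in median in females, at 1637 against 2488 CPM with overlap, and higher in males, at 1520 to 1798 CPM against 1279 to 1381 CPM without overlap. The summed neutrophil list was higher in Cav1-RC without overlap, at 351 to 549 CPM against 90.2 to 129 CPM in females. In males it was at 291 to 709.7 CPM against 179 to 260 CPM, also without overlap. The part of other cells in the monocyte genes was not tested. Of the libraries compared, 4 of the 6 Control and no Cav1-RC are on the list. In hypoxic Control mice 0 of 16 other alveolar genes were called and 14 were positive (median 0.51), against 0.846% of all genes called and 49.7% positive, with 4 of the 6 hypoxic and 1 of the 6 normoxic libraries on the list. In normoxic Cav1-KO against Control mice, Siglecf, the sialic acid receptor of alveolar macrophages and eosinophils, was the 1 other alveolar gene called (1.19, adjusted p = 0.0281), and Ms4a7 the 1 interstitial gene (1.39, adjusted p = 0.0013). These are 1 of 16 and 1 of 17 genes, against 5.78% of all genes, and none of the 5 Cav1-KO and 1 of the 6 Control libraries is on the list.

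The closest patterns across libraries were sought among 16030 genes, by Pearson correlation of log2 CPM over the 34 libraries after subtracting the mean of the listed and of the other libraries. The points share depth, genotype and oxygen, and the values are descriptions. Chil3 was closest to Ccl6 (0.956), Atp6v0d2 (0.928) and Ctss (0.925), Mrc1 to Atp6v0d2 (0.939), Ctss (0.933) and Lrp12 (0.928), and Ear2 to Siglecf (0.938), Abcg1 (0.938) and Vstm2a (0.928). Marco was closest to Mpeg1 (0.828), Ms4a8a (0.827) and Mcemp1 (0.820), and Pparg to Pygl (0.839), Mpeg1 (0.827) and Itgb2 (0.821). The 3 C1q genes were closest to each other (0.921 to 0.924), followed for each by Ms4a7 (0.788 to 0.838).

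The monocyte genes had no such shared pattern. Ly6c2 was closest to Ly6d (0.837), Pou2af1 (0.823) and Mzb1 (0.797), the latter pair being genes of B cells and plasma cells, and Ccr2 to Sfxn4 (0.741), Zfp446 (0.704) and Evi2a (0.695). Between Ccr2 and Ly6c2 the correlation was 0.127. Pairs of the 5 alveolar genes lay between 0.693 and 0.917, alveolar with interstitial genes between 0.0902 and 0.362, and all pairs between the 3 classes between -0.492 and 0.545.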

How the data were processed

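Libraries of 34 mouse lungs were grouped by their labels into 12 groups. The authors made directional poly-A libraries, mapped the reads to mm10 with HISAT2 2.0.5 and deposited raw counts per gene from featureCounts 1.5.0-p3 (default parameters, with no strand setting named), and FPKM of the same genes. The counts were tested as deposited with edgeR 4.0.16 in R 4.3.3 (TMM, filterByExpr, glmQLFit, glmQLFTest) on the libraries of the groups compared, with Benjamini-Hochberg adjustment over all genes tested. CPM use TMM factors, and standard errors are the fold change over the square root of F. Replicates are different mice. The replicate numbers were checked for pairing and did not pair the libraries. As alternatives, DESeq2 1.42.0, limma 3.58.1 on log2(FPKM + 1) and log2(FPKM + 0.1), other filters, thresholds and fits, and each library left out were computed. The scripts were tested on simulated data. The 10 genes and 22 further gene lists were chosen with earlier results of these data known, the western blot list included. All 10 genes are named, and of a list up to 3 called genes with the smallest adjusted p, unless the text describes a list by its summed level. Some items that these rules would name are not reported here. For each gene, the 3 genes with the closest pattern were named among those with a mean of at least 1 CPM (prior count 2). The labels give 1 batch for all libraries. Intervals from depth cover counting error only.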

Additional observations from a re-analysis of the deposited data

Results flagged for a closer look

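The response to hypoxia differed between genotypes in a test of the difference itself for 5 of the 10 genes, with the sexes averaged and edgeR's adjusted p under 0.05. Between Cav1-KO and Control, the differences of the log2 fold changes were -1.85 for Ear2 (SE 0.54, adjusted p = 0.0257) and -0.72 for C1qb (SE 0.24, adjusted p = 0.0409), 2 of the 10 genes beside 20.2% of all genes. Between Cav1-RC and Cav1-KO they were 1.92 for Chil3 (SE 0.74, adjusted p = 0.0428), 1.11 for Ear2 (SE 0.43, adjusted p = 0.0427), 0.58 for Pparg (SE 0.22, adjusted p = 0.0445), 1.08 for C1qb (SE 0.23, adjusted p = 0.00121) and 1.5 for Ly6c2 (SE 0.42, adjusted p = 0.00855), 5 of the 10 genes beside 42.8% of all genes. Both counts are near the share over all genes and are no result about the 10 genes as a set. All 7 rest on the hypoxic Cav1-KO libraries, which are all on the western blot list, while the normoxic ones are not. Groups of 2 or 3 libraries were not searched for libraries that stand apart.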

How the results depend on the processing

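No value of the 10 genes turned its direction while called. Counts of calls moved, and the cause was not tested. The share of all genes called by the Wald test, under another alternative or with a library left out is not given here. These counts are therefore no result about the 10 genes as a set. In Cav1-KO against Control, 0 calls within a sex became 3 in 1 fit over all libraries, 5 with the Wald test of DESeq2, 5 with no filter on low counts, 1 with no fold threshold and 1 without the libraries against their sex label. The 1 call as a mean of the sexes became 2, 2, 3 and 2 under the first 4 of these and 0 with all 3 limma settings on log2 FPKM and with the list term. In Cav1-RC against Cav1-KO, 3 calls became 6 (Wald), 9 (no filter), 6 (no fold threshold), 1 (limma on log2(FPKM + 1) without a filter) and 0 (list term), and the 1 call of the mean 2 (no filter), 3 (no fold threshold) and 0 (list term). In Cav1-RC against Control, 0 calls became 1 in 1 fit over all libraries, 2 with the list term, and 1 each with Wald, no filter and no fold threshold, where the mean of the sexes also had 1. For hypoxia, 3 calls became 1 in 1 fit over all libraries (Ear2 in Cav1-KO females), 1 with the list term, which was none of the 3 (Mrc1 in Control females), 9 with no filter and 6 with no fold threshold, and the 1 call of the mean 4 and 3 under the latter pair, 2 with Wald, and 2 with the list term, which were Marco and Mrc1 in Control mice in place of Ear2. The 5 differences of the hypoxia response became 3 and, with the list term, 1 (Ccr2, Cav1-RC against Control). The 9 sex differences had 0 calls also in 1 fit over all libraries with or without the list term, the only alternatives run for them.

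The replicate numbers did not pair the libraries: in 0 of 13 comparisons with 3 pairs was every correlation over 0.1 (range over all 18 -0.165 to 0.565). With the replicate block, calls within a sex were 4 in Cav1-KO against Control, 7 in Cav1-RC against Cav1-KO, 2 in Cav1-RC against Control and 5 for hypoxia, and the mean of the sexes in Cav1-KO against Control had 0.

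With each library left out, calls within a sex ranged from 0 to 6 in Cav1-KO against Control, from 2 to 7 in Cav1-RC against Cav1-KO, from 0 to 3 in Cav1-RC against Control and from 2 to 4 for hypoxia. For the mean of the sexes the ranges were 0 to 3, 1 to 2, 0 to 0 and 1 to 2. The 6 calls came without replicate 1 of the hypoxic Control females, 3 without replicate 1 of the normoxic ones, and 1 without replicate 2 of the hypoxic or 1 or 3 of the normoxic Control males. The 7 calls came without replicate 2 of the normoxic Cav1-RC females, 6 without replicate 1 of the hypoxic ones or replicate 2 of the normoxic Cav1-KO males, and 5 without replicate 1 of the normoxic Cav1-RC females or either normoxic Cav1-KO female. The 3 calls against Control came without replicate 1 of the normoxic Control males. The 1 call of Ly6c2 against Control was lost without replicate 1 or 2 of the hypoxic Cav1-KO females, 2 or 3 of the hypoxic Control females, any hypoxic Cav1-KO male, or 1 or 3 of the hypoxic Control males, and the mean had 3 calls without replicate 1 of the hypoxic Control females or of the normoxic Control males. The mean had 2 calls in Cav1-RC against Cav1-KO without replicate 1 of the hypoxic or 2 of the normoxic Cav1-RC females, and 2 for hypoxia without replicate 1 of the hypoxic Cav1-RC or Control females. The differences of the hypoxia response were not run with libraries left out.

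Of 3060 values of single genes under alternatives, 2897 kept their side of the threshold. Those among them called in neither fit shifted by less than the gene's standard deviation within groups, and their direction was not checked. Of the rest, 74 passed the threshold, 27 fell short of it, and 62 that were called in neither fit shifted by more. Groups of 2 or 3 libraries limit the precision.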

Other observations

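For 1 more library the labels mark sex, genotype and oxygen as uncertain, possibly a normoxic Cav1-KO female, and it entered no comparison. The western blot list names the animal as a normoxic Cav1-KO female. The library held 30930450 counts and had Cav1 at 1.34 FPKM and Xist at 633 CPM. Of the alveolar genes it had 128 FPKM of Chil3, 30.1 of Ear2, 12.4 of Marco, 9.78 of Mrc1 and 3.02 of Pparg. The listed Cav1-KO libraries, all hypoxic, had 83.2 to 204 FPKM of Chil3 and 30.6 to 43.9 of Ear2. The normoxic Cav1-KO libraries of both sexes, none listed, had 65.4 to 470 and 36.3 to 138 FPKM. In the uncertain library the C1q genes stood at 53.5 (C1qa), 32.0 (C1qb) and 23.1 FPKM (C1qc), and Ccr2 at 4.27 FPKM. Its Ly6c2, 1.31 FPKM, lay under the lowest of the 34 grouped libraries, 1.43 FPKM.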
